A study of Mus musculus with 8 samples.

Results

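Caseins are the main proteins of milk. This report describes the 5 mouse casein genes, Csn1s1, Csn2, Csn1s2a, Csn1s2b and Csn3, among the 50578 genes counted by RNA-seq in mouse embryonic fibroblasts (MEFs) and in MEFs treated with 1 of 3 small molecules. The genes were found by their symbols in the count table. They were chosen with the counts of these libraries known, in particular the counts of Csn3, so the values of the caseins are given as a description and without a test. Only Csn3 was read in quantity: it went from 6 and 4 reads in the MEF libraries to between 10049 and 21424 reads in every treated library, whereas no other casein had more than 4 reads in any library.

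The 4 groups, with 2 libraries each, were MEF, Carbidopa, LY-364747 and CHIR-99021. All cells carried the label WT. The MEFs came from C57BL/6J embryos, and the labels give 1 protocol for all groups: cells attached for 2 h, the molecule was added at 10 µM, and the medium was changed every 3 days. The MEF libraries carry the treatment label Control, and the labels do not name a vehicle. Carbidopa inhibits aromatic-L-amino-acid decarboxylase, CHIR-99021 inhibits the kinase GSK3, and LY-364747, which the study's text mostly spells with another digit, is given there as an inhibitor of the TGF-beta receptor. The methods give a duration of treatment for the PCR measurements and not for RNA-seq, and no time in culture for the MEF libraries, so treatment and time in culture cannot be told apart in the comparisons with MEF. Nothing states that the 2 libraries of a group came from separate embryos or cultures, so p-values measure the spread between these libraries, which may be technical.

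In the lactating mammary gland, kappa casein, the product of Csn3, sits on the surface of the casein micelle and keeps the micelle in solution, while the alpha and beta caseins from the other genes form its calcium phosphate-binding interior. Casein transcription there depends on prolactin, which acts through its receptor, the kinase JAK2 and the transcription factor STAT5, together with glucocorticoid hormone acting through its receptor. The caseins belong to the secretory calcium-binding phosphoproteins, a family that also holds proteins of bone, enamel and saliva. Csn3 lies in the same cluster as the other caseins but has a separate origin within that family.

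The casein cluster lies on chromosome 5 of the mouse genome (GRCm38, the build also called mm10, with gene models from GENCODE M21). Csn1s1 runs from 87666208 to 87682578 on the plus strand and Csn2 from 87692624 to 87699630 on the minus strand. Csn1s2a follows at 87774567 to 87788797 and Csn1s2b at 87808082 to 87824426, both on the plus strand. Csn3 is the last, at 87925579 to 87932665 on the plus strand, after a gap of 101.2 kb. The cluster spans 266.5 kb from the start of Csn1s1 to the end of Csn3. The annotation gives 3 coding transcripts of Csn3, of 991, 1258 and 1596 bases, and in each the coding sequence is 543 bases long, or 181 codons before the stop. The first 150 coding bases are shown because Csn3 is the casein that was read. They are taken from transcript ENSMUST00000001667.12, with the start codon in capitals. Reads were counted per gene, so the counts do not tell the transcripts apart.

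Csn3 coding start: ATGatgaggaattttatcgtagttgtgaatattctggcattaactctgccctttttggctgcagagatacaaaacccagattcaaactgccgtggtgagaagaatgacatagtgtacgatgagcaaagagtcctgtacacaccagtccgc

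The exons of Csn3 share almost no sequence with other genes. Of the 4191 different words of 75 bases in the Csn3 exons, 3 (0.0716%) also occur in the exons of another gene, Pmf1, and no such word of the other 4 caseins occurs elsewhere. The annotated antisense transcript 1700066N21Rik overlaps the span of Csn3, but none of its exon bases overlap those of Csn3, and it had 0 reads in all 8 libraries.

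Promoters from RefSeq (GRCm38.p6) were at hand for 3 of the 5 caseins, Csn1s1, Csn2 and Csn1s2a. They are shown because these genes stayed at or near 0 reads while their neighbour Csn3 was read at high counts. Each runs from 250 bases before the RefSeq start to 50 bases after it, 5′ to 3′ on the gene's own strand, and capitals mark the match to TTCNNNGAA, the palindromic core that STAT factors recognise. The windows are chr5:87665958-87666257 for Csn1s1, chr5:87699376-87699675 on the minus strand for Csn2, and chr5:87774200-87774499 for Csn1s2a.

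Csn1s1: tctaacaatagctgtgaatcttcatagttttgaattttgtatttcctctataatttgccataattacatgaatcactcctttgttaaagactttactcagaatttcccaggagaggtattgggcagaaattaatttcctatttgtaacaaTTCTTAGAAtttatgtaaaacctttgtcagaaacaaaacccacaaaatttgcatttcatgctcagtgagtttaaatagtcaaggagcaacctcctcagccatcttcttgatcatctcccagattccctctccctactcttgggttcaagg

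Csn2: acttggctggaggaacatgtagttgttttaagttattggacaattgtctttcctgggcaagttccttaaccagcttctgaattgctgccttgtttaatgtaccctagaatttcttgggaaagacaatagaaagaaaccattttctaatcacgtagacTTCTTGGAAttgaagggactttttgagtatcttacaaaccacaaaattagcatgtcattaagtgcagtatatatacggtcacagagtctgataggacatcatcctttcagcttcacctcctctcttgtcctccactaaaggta

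Csn1s2a: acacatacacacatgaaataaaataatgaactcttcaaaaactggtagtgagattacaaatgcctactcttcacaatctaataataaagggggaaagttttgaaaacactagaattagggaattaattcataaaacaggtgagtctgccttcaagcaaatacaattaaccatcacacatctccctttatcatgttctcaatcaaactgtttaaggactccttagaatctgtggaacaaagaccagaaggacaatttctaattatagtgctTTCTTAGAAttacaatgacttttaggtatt

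Each of these windows held 1 match to TTCNNNGAA. The match began at position -100 from the RefSeq start in Csn1s1, at -93 in Csn2 and at 20 in Csn1s2a. The GENCODE model starts Csn1s2a at 87774567, beyond the end of its window at 87774499. It starts Csn2 at 87699630, upstream of the RefSeq start. The positions in Csn2 and Csn1s2a thus depend on the annotation. Of all 32851 promoter windows of this length, 8.30% held such a match. The palindrome ACANNNTGT, which lies within the sites of steroid hormone receptors, was in none of these 3 windows and in 6.85% of all windows. Both patterns read the same on either strand, and they do not overlap each other in these windows. A match is a description of the letters and not a measured binding site.

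The 8 libraries held between 15039566 and 20504338 counts. Of the 50578 genes, 15154 passed edgeR's filter on low counts and were tested, and Csn3 was the only casein among them. Levels are given as CPM, the read count scaled to a common library size, with edgeR's TMM factors. A count of 0 allows up to 3 reads, which in these libraries is 0.140 to 0.223 CPM, and such limits and all intervals from reads cover counting error only. The treated cells are labelled hepatic-like, but of 10 hepatocyte markers only Ass1 passed the filter, and it was lower in all 3 comparisons with MEF. Albumin (Alb) had 0 to 2 reads in MEFs and 5 to 10 in treated libraries, and Serpina1a and Tat had 0 everywhere. Of 12 fibroblast markers, 10 were lower and 1 was higher in each comparison with MEF. Over all genes tested, 17.2% to 20.1% were lower and 13.7% to 18.7% higher. The summed level of the fibroblast markers was 35705 to 36045 CPM in MEFs and 8595 to 12153 CPM in treated libraries. Fewer cells of a type and less RNA per cell cannot be told apart in such bulk samples. In the comparisons with MEF, 47.8% (Carbidopa), 44.3% (LY-364747) and 48.2% (CHIR-99021) of the called genes were higher. On total counts without TMM these shares were 73.9%, 70.0% and 69.8%, and the median log2 fold change of all genes was then 0.29, 0.25 and 0.26, against 0.04, 0.03 and 0.04 with TMM.

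Csn3 was at the edge of detection in MEFs. The 2 MEF libraries had 6 and 4 reads, which is 0.446 and 0.258 CPM (0.352 ± 0.133 CPM, SD, n = 2). With Carbidopa there were 21168 and 21424 reads, or 996 and 999 CPM (998 ± 2.11 CPM, SD, n = 2). With LY-364747 there were 20384 and 18958 reads, or 1144 and 1010 CPM (1077 ± 95.2 CPM, SD, n = 2). With CHIR-99021 there were 10049 and 12338 reads, or 579 and 716 CPM (647 ± 97.2 CPM, SD, n = 2). The MEF libraries and the treated libraries did not overlap at any point of their ranges.

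**Figure D1:**
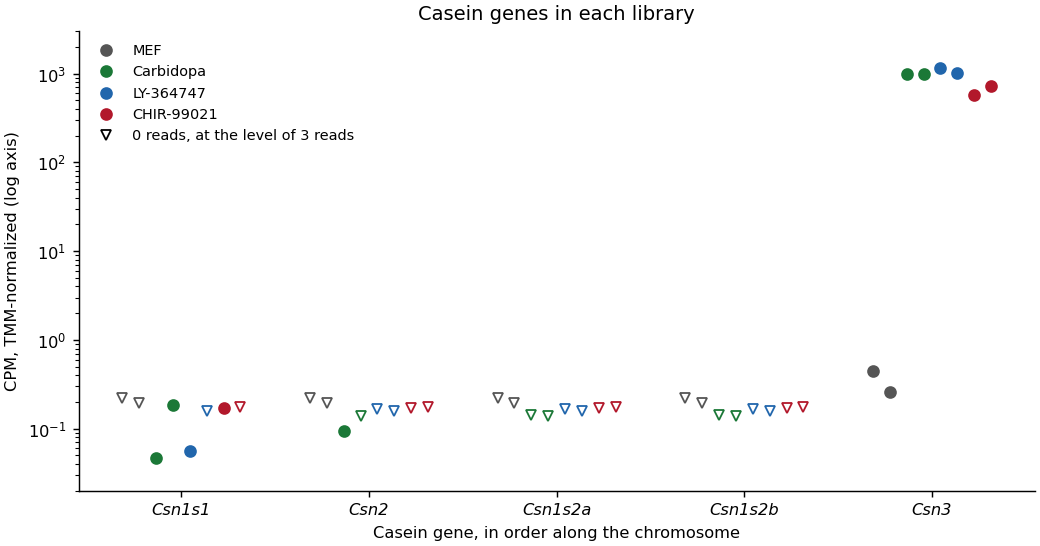
Level of each casein gene in each of the 8 libraries, in TMM-normalized CPM on a log axis, with points coloured by group and open triangles at the level of 3 reads for libraries with 0 reads. Csn3 lies at 579 to 1144 CPM in the 6 treated libraries and under 0.5 CPM in the 2 MEF libraries, and the other caseins have no point above 4 reads.

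The pooled reads gave a Csn3 level 2889 times that of MEFs with Carbidopa (95% exact interval 1571 to 6024), 3112 times with LY-364747 (1692 to 6490) and 1873 times with CHIR-99021 (1018 to 3906). These intervals are wide because the MEF value rests on 10 reads in all. In edgeR's fit across all 15154 genes, the log2 fold change of Csn3 was 11.47 (standard error 0.23) with Carbidopa, 11.58 (0.24) with LY-364747 and 10.84 (0.23) with CHIR-99021. In each of these comparisons it was the highest of the 15154 fitted values, and these are the values by which the gene was chosen. The next highest value belonged in each case to Kcnh1, which encodes a voltage-gated potassium channel, at 9.93, 10.17 and 9.58. Among all genes, 18.0% were higher and 19.7% lower with Carbidopa at an adjusted p under 0.05, 13.7% and 17.2% with LY-364747, and 18.7% and 20.1% with CHIR-99021.

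**Figure D2:**
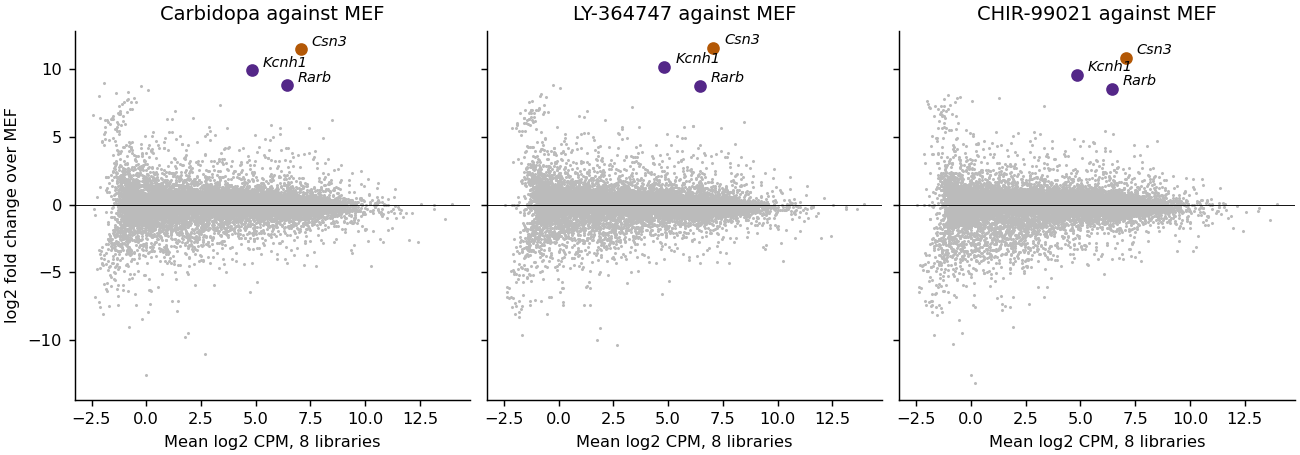
Fitted log2 fold change over MEF (vertical axis) against the mean log2 CPM over the 8 libraries (horizontal axis) for 15154 genes, 1 panel for each molecule. Csn3 is the uppermost point in each panel, at 11.47, 11.58 and 10.84, above Kcnh1 and Rarb.

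In treated cells Csn3 was among the abundant messages. It took 0.106% and 0.104% of all counts in the Carbidopa libraries, 0.118% and 0.106% in the LY-364747 libraries, and 0.0598% and 0.0734% in the CHIR-99021 libraries. By reads it stood at rank 76 of 50578 genes in both Carbidopa libraries, 66 and 80 with LY-364747, and 185 and 131 with CHIR-99021, against 14637 and 15591 in the MEF libraries. Divided by the 4152 bases of its annotated exons, its level was 139 to 276 CPM per kb in treated libraries and 0.0622 to 0.107 CPM per kb in MEFs. On this per-length scale it ranked between 89 and 215 of 50354 genes in treated libraries. The 4152 bases pool the exons of all annotated Csn3 transcripts and exceed each coding transcript (991 to 1596 bases). Per kb of a coding transcript the level would be higher.

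Between the molecules, the order of the Csn3 level was LY-364747, Carbidopa, CHIR-99021 and MEF. Both CHIR-99021 libraries lay below all 4 libraries of the other molecules. The log2 difference of CHIR-99021 was -0.62 (standard error 0.12) from Carbidopa and -0.73 (0.12) from LY-364747. LY-364747 differed from Carbidopa by 0.11 (0.12), and the distance between their means was smaller than the SD of the LY-364747 libraries, so these neighbours did not differ beyond their spread. For scale, 14.7% of genes differed between CHIR-99021 and Carbidopa in either direction, 14.1% between CHIR-99021 and LY-364747, and 0.0132% between LY-364747 and Carbidopa. The Carbidopa libraries differed most from each other, and the test shares 1 spread per gene over all groups. The last share thus does not show that LY-364747 and Carbidopa acted alike. The 3 molecules were all given at 10 µM, and each comparison with MEF uses the same 2 MEF libraries.

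The other caseins were not detectable or nearly so at this depth. Csn1s1, which encodes alpha-S1 casein, had 0 reads in both MEF libraries, 1 and 4 in those of Carbidopa, 1 and 0 with LY-364747, and 3 and 0 with CHIR-99021. Csn2, which encodes beta casein, had 2 reads in the library Carbidopa 1 and 0 in the other 7. Csn1s2a and Csn1s2b, the alpha-S2-like caseins, had 0 reads in all 8 libraries, so 3 of the 5 caseins had any read and 2 had none. Csn3 made up 99.97% to 100% of the casein reads of each library. The read counts of the other caseins are too low for any difference between groups to be detectable.

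The genes around the caseins were also nearly silent by read count. Within 300 kb on either side of the cluster the annotation holds 41 genes, all listed in the count table, 36 of which are not caseins. Of these 36, 24 had 0 reads in every library and 12 had at least 1 read, with a highest value of 14 reads in a single library. Odam, which encodes a protein of enamel formation and is one of the closest neighbours of Csn3, had 2 reads in the library LY-364747 2 and 0 elsewhere.

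Some neighbours had a few more reads in MEFs. Smr3a, a salivary peptide gene of the submaxillary family, had 8 and 9 reads in MEFs and at most 1 in any treated library. Smr2, of the same family, had 7 and 14 reads in MEFs and at most 2 in treated libraries. Neither group overlapped the other for these genes, but the counts were too low for the filter and were not tested.

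Other neighbours, on the far side of the cluster, had reads mostly in treated cells. Ugt2a1, a UDP-glucuronosyltransferase, had 0 reads in both MEF libraries, 6 and 8 for Carbidopa, 11 and 8 with LY-364747, and 7 and 10 with CHIR-99021. Set against 3 reads for the MEF group, the pooled levels were 3.17, 5.01 and 4.74 times as high, leaving aside counting error in the treated reads. Sult1e1, the estrogen sulfotransferase, had 0 reads in MEFs, then 10 and 6 with Carbidopa, 9 and 6 with CHIR-99021, and 1 and 1 with LY-364747. Sult1b1, another sulfotransferase, had 1 and 0 reads in MEFs and 3 to 9 in treated libraries. No gene of the window other than Csn3 had more than 11 reads in a treated library.

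**Figure D3:**
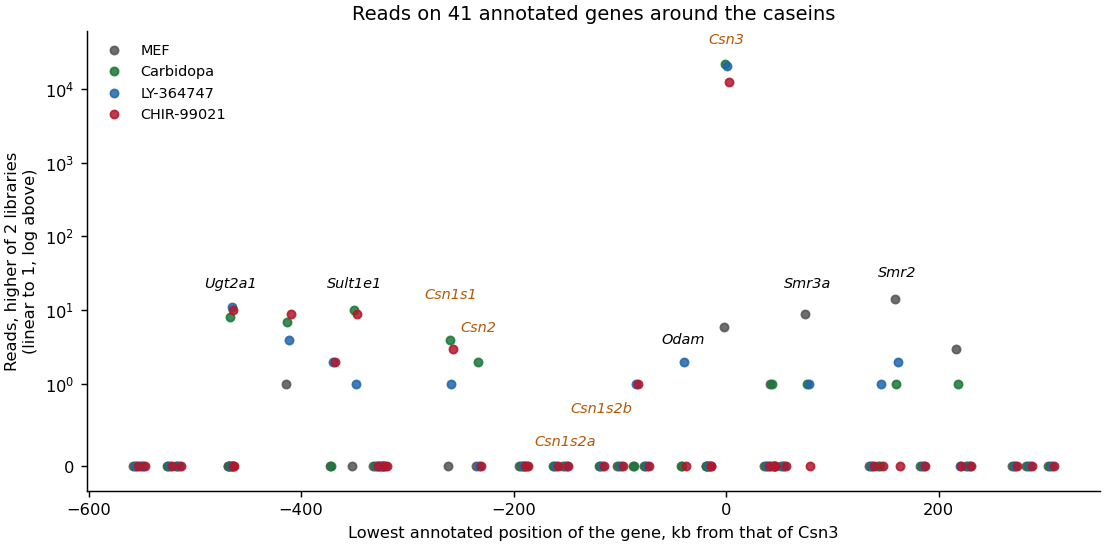
Reads of the 41 annotated genes within 300 kb of the casein cluster, the higher of the 2 libraries of each group, against the distance in kb of the gene's lowest position from that of Csn3. The vertical axis is linear up to 1 read and logarithmic above it. Csn3 stands at 12338 to 21424 reads in the treated groups, and no other gene exceeds 14.

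Genes that carry the prolactin signal were called in both directions. Of 20 genes of prolactin and STAT5 signalling, 18 were tested. With Carbidopa 3 were higher and 6 lower, with LY-364747 3 and 5, and with CHIR-99021 4 and 6. Over all genes tested, 18.0% were higher and 19.7% lower with Carbidopa, 13.7% and 17.2% with LY-364747, and 18.7% and 20.1% with CHIR-99021, and the lists below are to be read against these shares. The median log2 fold changes of the list were -0.19, -0.05 and 0.06. On total counts without TMM the split was 5 and 5, 4 and 4, and 4 and 4, and no gene called with TMM changed direction.

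The ligand and receptor end of the pathway was low throughout. Prl, which encodes prolactin itself, had at most 1 read in any library. Prlr, the prolactin receptor, had 33 and 37 reads in MEFs, then 32 and 50 with Carbidopa, 38 and 54 with LY-364747, and 45 and 52 with CHIR-99021. In CPM, LY-364747 overlapped MEF, both Carbidopa libraries lay below the MEF libraries and both CHIR-99021 libraries above them. Its log2 fold changes of -0.33, 0.05 and 0.21 had standard errors of 0.30 each and adjusted p-values of 0.415, 0.916 and 0.611 (edgeR's quasi-likelihood test). The kinase gene Jak2 was at 72.3 and 74.3 CPM in MEFs and between 39.6 and 47.3 CPM in the treated libraries. It fell, with log2 fold changes of -0.68, -0.68 and -0.78 (adjusted p = 0.000759, 0.000816 and 0.000317).

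The transcription factors at the end of the pathway differed between the 2 STAT5 genes. Stat5a, the form that predominates in the mammary gland, was at 13.8 and 16.7 CPM in MEFs and 15.3 to 18.0 CPM in treated libraries. LY-364747 and CHIR-99021 overlapped MEF, both Carbidopa libraries lay above the MEF libraries, and Stat5a did not pass the test in any comparison with MEF. On total counts it was called with Carbidopa, at a log2 fold change of 0.45 (adjusted p = 0.0224). Stat5b fell from 34.8 and 36.1 CPM in MEFs to 22.8 to 27.2 CPM, with log2 fold changes of -0.55, -0.48 and -0.41 (adjusted p = 0.00298, 0.00717 and 0.0145). With LY-364747 and with CHIR-99021 the call for Stat5b did not hold on total counts (adjusted p = 0.085 and 0.173).

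Known STAT5 targets and feedback genes went in different directions. Cish, a direct STAT5 target that damps the signal, had 90 to 136 reads per library and did not pass the test in any comparison. Socs2, another feedback inhibitor, rose by 0.47 with Carbidopa and 0.64 with LY-364747 on the log2 scale (adjusted p = 0.0243 and 0.00579), and its value with CHIR-99021 was 0.03. The Carbidopa call was lost with DESeq2 (adjusted p = 0.0763). Socs3, an inhibitor shared with other cytokines, rose by 1.50, 1.35 and 1.25.

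Pim1, a kinase gene that STAT5 and many other factors induce, had the largest rise of the list. The MEF libraries stood at 7.36 and 5.87 CPM, those with Carbidopa at 80.0 and 64.3, those with LY-364747 at 64.6 and 65.6, and those with CHIR-99021 at 165 and 156. The log2 fold changes over MEF were 3.45, 3.30 and 4.60, and CHIR-99021 lay 1.15 above Carbidopa and 1.30 above LY-364747 (adjusted p = 0.000304 and 0.000168). CHIR-99021 was thus the highest group for Pim1 and the lowest treated group for Csn3. Igf1, the growth factor that growth hormone induces through STAT5B, fell, with log2 fold changes of -3.19, -3.33 and -2.99. Igfbp5, an IGF-binding protein that prolactin represses in the gland, fell as well (-1.37, -0.87 and -3.76).

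Factors known to bind casein promoters were also called in both directions. Of 19 such genes, 18 were tested, with 3 higher and 7 lower with Carbidopa, 4 and 6 with LY-364747, and 3 and 5 with CHIR-99021. The median log2 fold changes were -0.31, -0.20 and -0.12. On total counts the splits were 6 and 5, 5 and 4, and 5 and 4. This list shares Stat5a and Stat5b with the previous one.

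Pgr, the progesterone receptor, had the largest change of the factor list. Its MEF libraries were at 3.94 and 3.29 CPM, Carbidopa at 87.2 and 121, LY-364747 at 127 and 112, and CHIR-99021 at 69.1 and 73.0. The groups of treated and MEF libraries did not overlap, and the log2 fold changes over MEF were 4.85, 5.05 and 4.30 (standard error 0.20 each). CHIR-99021 was lower than Carbidopa by a log2 difference of -0.55 (adjusted p = 0.0345) and lower than LY-364747 by -0.74 (adjusted p = 0.00924). It was thus the lowest treated group for Pgr, as for Csn3. The Carbidopa and LY-364747 libraries overlapped for Pgr. In the mammary gland, progesterone acting through this receptor restrains casein transcription during pregnancy.

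Gata3, which specifies luminal mammary cells among other lineages, was at 3.35 and 3.94 CPM in MEFs and at 26.6 to 45.0 CPM in the treated libraries. It rose by 2.91, 3.09 and 3.62 on the log2 scale. Nr3c1, the glucocorticoid receptor, fell, with log2 fold changes of -0.59, -0.48 and -0.69 (adjusted p = 0.0018, 0.0067 and 0.00066), although its level stayed above 100 CPM in every library. The LY-364747 call for Nr3c1 did not hold on total counts (adjusted p = 0.0714).

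Among the C/EBP factors, Cebpb, which is required for secretory differentiation of the gland, did not pass the test in any comparison with MEF. Cebpd fell, with log2 fold changes of -0.89, -1.68 and -1.98, and its Carbidopa call did not hold on total counts (adjusted p = 0.0539). Runx1 fell, with log2 fold changes of -2.72 for Carbidopa, -2.44 for LY-364747 and -0.98 for CHIR-99021. Nfib, a nuclear factor that binds milk gene promoters, was not called, and its replicates stood far apart, with 264 and 85.5 CPM in MEFs and 38.3 and 167 CPM with Carbidopa. Elf5, the ETS factor that drives the secretory alveolar fate, had at most 4 reads in any library.

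**Figure D4:**
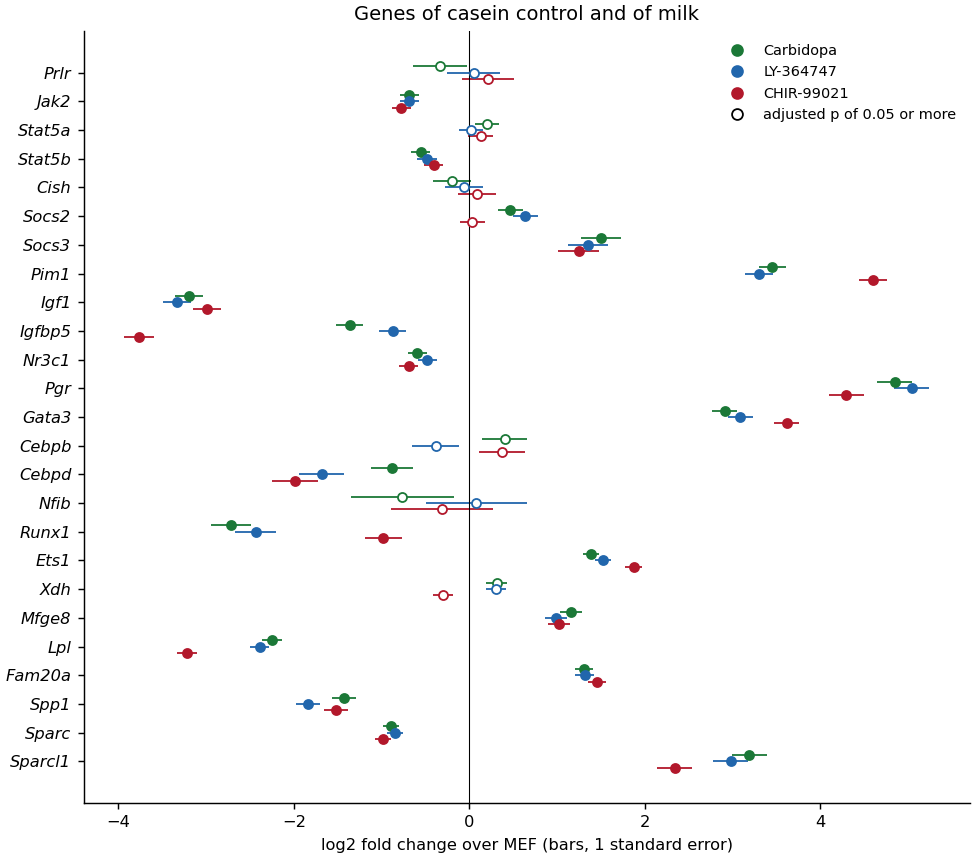
Fitted log2 fold change over MEF of 25 genes of casein control and of milk, with bars of 1 standard error, coloured by molecule, and open symbols where the adjusted p was 0.05 or more. Pgr, Gata3, Pim1 and Sparcl1 lie to the right, Igf1, Igfbp5, Lpl and Runx1 to the left, and Prlr, Stat5a, Cish, Cebpb, Nfib and Xdh have open symbols in all 3 comparisons.

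Genes that glucocorticoids are known to induce were called in both directions too. Of 12, 11 were tested, with 4 higher and 4 lower with Carbidopa, 4 and 5 with LY-364747, and 4 and 6 with CHIR-99021. Their median log2 fold changes were -0.27, -0.21 and -0.40. On total counts the splits were 4 and 2, 4 and 4, and 4 and 4, with medians of -0.02, 0.01 and -0.19. Pdk4, which restrains glucose oxidation, rose by 1.62, 1.71 and 1.08. Errfi1, a feedback inhibitor of the EGF receptor, rose by 0.67, 0.59 and 1.95. Dusp1, a phosphatase of MAP kinases, rose by 1.16, 0.92 and 1.19, and Klf9 by 1.08, 1.06 and 1.03. Mt2, a metallothionein, fell (-0.70, -1.19 and -1.56). Per1 (-0.85, -0.87 and -0.40) and Sgk1 (-0.37, -0.38 and -0.51) were also called lower in each comparison. Mt1 was called lower with LY-364747 (-0.67) and CHIR-99021 (-0.89), and Tsc22d3 with CHIR-99021 (-0.79). Cebpd, given above, is on this list too. Fkbp5, a commonly used marker of glucocorticoid action, did not pass the test in any comparison with MEF.

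Other milk genes were called in both directions or were not read. Of 22 genes of milk and lactation, 11 were tested. With Carbidopa 3 were higher and 3 lower, with LY-364747 3 and 2, and with CHIR-99021 3 and 3, with median log2 fold changes of -0.02, -0.05 and -0.30. On total counts the splits were 5 and 2, 5 and 2, and 3 and 3, with medians of 0.23, 0.17 and -0.09. Wap and Lalba, which encode the whey acidic protein and alpha-lactalbumin, had 0 reads in all 8 libraries, as did Cel. Glycam1, Ltf and Lpo had at most 2 reads in any library.

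The milk genes that were called higher were Btn1a1, Mfge8 and Fam20a. Btn1a1, butyrophilin of the milk fat globule membrane, had 0 reads in both MEF libraries, 15 and 6 under Carbidopa, 6 and 6 with LY-364747, and 37 and 28 with CHIR-99021. Set against 3 reads for the MEF group, the pooled levels were 4.75, 3.16 and 18.1 times as high, leaving aside counting error in the treated reads. The adjusted p-values were 0.00861, 0.0234 and 0.000433 (edgeR). Its LY-364747 call was lost on leaving out any single library of that comparison. Mfge8, a milk fat globule glycoprotein that many cells also secrete, rose from 144 and 145 CPM in MEFs to 269 to 355 CPM in treated libraries, by 1.16, 0.99 and 1.02 on the log2 scale. Fam20a, a partner of the kinase that phosphorylates caseins, rose by 1.30, 1.31 and 1.46, while the kinase gene itself, Fam20c, did not pass the test.

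Lpl, the lipoprotein lipase that supplies fatty acids to the gland, fell, with log2 fold changes of -2.25, -2.39 and -3.22. Fabp3, also of the milk list, fell by smaller steps (-0.52, -0.84 and -0.68), each past the test. Cd36 was called lower with CHIR-99021 only (-0.82). Xdh, which is needed to secrete milk fat globules, was not called against MEF, with log2 fold changes of 0.31, 0.30 and -0.30. It was called on total counts with Carbidopa and LY-364747 (adjusted p = 0.00333 and 0.00526), and in the fit of the compared groups alone with LY-364747 and CHIR-99021 (adjusted p = 0.00373 and 0.00921). CHIR-99021 was lower than Carbidopa and LY-364747 (adjusted p = 0.00677 and 0.00745). Muc15, a mucin of the globule membrane, fell by 1.91 with Carbidopa at 4 to 28 reads per library, and that call was lost with DESeq2 (adjusted p = 0.0652).

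The wider phosphoprotein family was mostly unread. Of 13 listed genes, which include the relatives Sparc and Sparcl1, 12 were in the count table and 3 were tested, Spp1, Sparc and Sparcl1. Amtn and Amelx had 0 reads everywhere, and Odam, Ambn, Enam, Ibsp, Dmp1, Dspp and Mepe had at most 4 reads in any library. Spp1, which encodes osteopontin, was at 497 and 436 CPM in MEFs and 122 to 192 CPM in treated libraries, and its log2 fold changes were -1.43, -1.84 and -1.52, each past the test. Sparc, a matrix protein of bone and fibroblasts, fell too (-0.89, -0.84 and -0.98). Sparcl1, its relative, from which the family is thought to descend, was the only tested gene of the list that rose. Its level was 4.16 and 6.77 CPM in MEFs, then 56.3 and 44.8 for Carbidopa, 45.6 and 41.5 for LY-364747, and 28.6 and 27.4 for CHIR-99021. CHIR-99021 was lower than Carbidopa and LY-364747 by log2 differences of -0.85 and -0.64 (adjusted p = 0.00831 and 0.0318).

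The markers of mammary epithelium were largely absent beside the high Csn3 count. Of 22 such genes, 13 stayed under 10 reads in every library and 9 were tested. Of those, 5 were higher and 1 was lower with Carbidopa, 3 and 1 with LY-364747, and 5 and 1 with CHIR-99021. The summed level of the list was 24.5 to 25.3 CPM in MEFs, 71.1 to 76.7 with Carbidopa, 70.9 to 71.5 with LY-364747, and 86.3 to 90.9 with CHIR-99021. This sum includes Gata3 and Cd24a, which are also expressed in other cells.

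Of the epithelial genes, Epcam, Cdh1 and Krt8 had few reads. Epcam had 2 to 6 reads in treated libraries and 0 in both MEF libraries, Cdh1 had at most 4 and Krt8 at most 6 in any library. Krt19 rose by 2.48, 1.77 and 1.36. Krt18 and Cldn4 were higher in CHIR-99021, by 2.37 and 3.70. The basal keratins Krt5 and Krt14 were read with Carbidopa, at 16 and 30 and at 18 and 78 reads, and had at most 2 reads in every other library. Krt7 was lower in all 3 comparisons, from 27 and 18 reads in MEFs to at most 6, but the LY-364747 call was lost with DESeq2 (adjusted p = 0.0728) and on leaving out any of the 4 libraries compared. The part of any such cells in the Csn3 level was not tested.

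Markers of macrophages, which can be present in fibroblast cultures, went the other way. Of 10 macrophage markers, 9 were tested and all 9 were lower with each molecule, and their summed level went from 1122 to 1156 CPM in MEFs to 321 to 345 with Carbidopa, 239 to 244 with LY-364747 and 79.7 to 87.6 with CHIR-99021. The part of this change in the other values was not tested.

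The genes whose pattern was most like that of Csn3 were found by the smallest root mean square difference between log2 CPM profiles centred on each gene's mean, over the 8 libraries. These genes were chosen by their values, so they are listed and not tested. The difference was 0.81 for Kcnh1, 1.05 for Rarb, 1.83 for 2610528A11Rik, 2.30 for Clu, 2.32 for Cdhr1, 2.33 for Shisa3, 2.46 for Naip1, 2.48 for Tmem255a and for Cyp26b1, and 2.55 for Gm16485. Over all genes the median was 4.73, and 1% lay below 3.60. The differences come mainly from the size of the step between MEF and treated libraries.

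Kcnh1 had 2 and 2 reads in MEFs, then 2680 and 3380 with Carbidopa, 2931 and 3183 with LY-364747, and 1906 and 1939 with CHIR-99021. Its pooled level was 1027 times that of MEFs with Carbidopa (95% exact interval 401 to 3772), 1209 times with LY-364747 (472 to 4439) and 804 times with CHIR-99021 (314 to 2953). Like Csn3, it was almost unread in MEFs and lowest among treated cells with CHIR-99021.

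Rarb, the retinoic acid receptor beta, had 12 and 14 reads in MEFs, then 9037 and 8397 with Carbidopa, 7226 and 7443 with LY-364747, and 5694 and 6083 with CHIR-99021. Cyp26b1, an enzyme that degrades retinoic acid, had 157 and 170 reads in MEFs, then 12062 and 12790 with Carbidopa, 10665 and 10062 with LY-364747, and 4001 and 4197 with CHIR-99021. Clu, the secreted chaperone clusterin, had 240 and 295 reads in MEFs, then 33379 and 26546 with Carbidopa, 22203 and 25447 with LY-364747, and 8633 and 8455 with CHIR-99021. These genes share with Csn3 a lower count with CHIR-99021 than with the other molecules.

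Cdhr1, a cadherin known from photoreceptors, had 53 and 54 reads in MEFs and 2674 to 4278 in treated libraries, the fewest with CHIR-99021. Shisa3, an inhibitor of Wnt and FGF receptor maturation, had 5 and 0 reads in MEFs and 117 to 339 in treated libraries. Naip1, a sensor protein of the inflammasome, had 1 and 0 reads in MEFs, then 95 and 120 with Carbidopa, 81 and 106 with LY-364747, and 181 and 152 with CHIR-99021, so here CHIR-99021 was highest. 2610528A11Rik had 1 and 5 reads in MEFs and 535 to 828 in treated libraries, Tmem255a 6 and 17 against 336 to 890, and Gm16485 4 and 9 against 224 to 487.

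**Figure D5:**
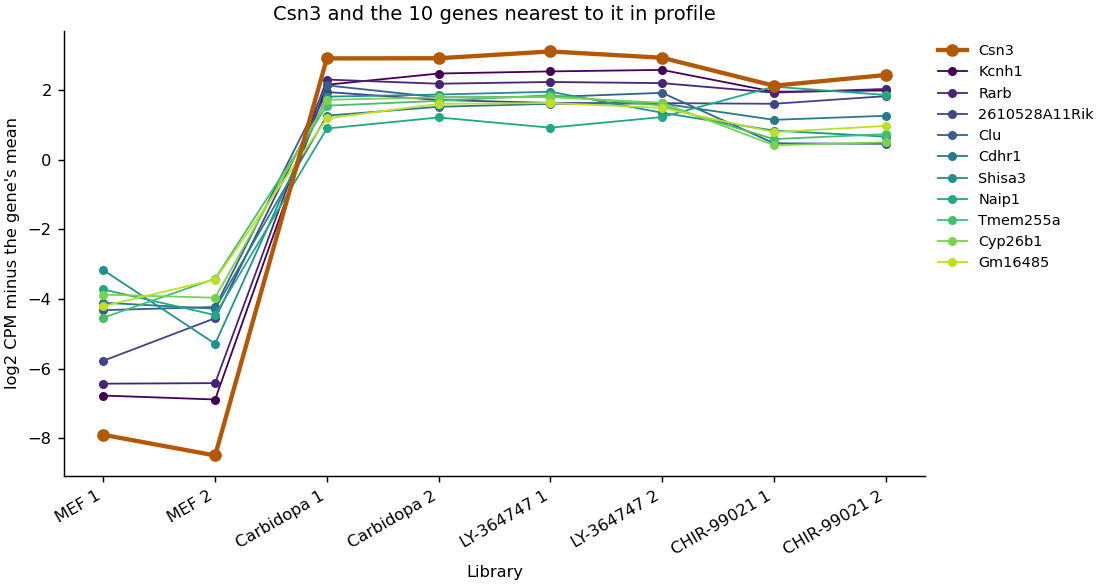
Log2 CPM minus the gene's own mean in each of the 8 libraries, for Csn3 and for the 10 genes nearest to it, with points joined by gene. All 11 profiles step up from the MEF libraries to the treated ones, Csn3 by the most, and all except Naip1 and 2610528A11Rik are lower with CHIR-99021 than with LY-364747.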

How the data were processed

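RNA-seq had been performed on 8 libraries, 2 per group. Per the study's methods and the labels, the authors mapped reads to mm10 with STAR 2.4.2a and counted them on genes with featureCounts. The values are counts of reads per gene, deposited as whole numbers without normalization. The library kit is given differently in the labels (SMARTER) and in the methods (NEBNext Ultra). The annotation release and the use of strand are not given in the sources used here. Of 50578 gene identifiers, 50354 (99.6%) were found in GENCODE M21.

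The counts were tested in R 4.3.3 with edgeR 4.0.16 (TMM factors, the filter filterByExpr and the quasi-likelihood test), in 1 fit of all 8 libraries on their group. A gene was called at an adjusted p under 0.05 (Benjamini-Hochberg, over all 15154 tested genes). Log2 CPM profiles used a prior count of 2. DESeq2 1.42.0 was an alternative. The other alternatives were RLE factors, total counts, no filter, a minimum of 10 counts per library, a fit restricted to the groups compared, the replicate number as a block, and omission of each library in turn. The fit was tested on simulated data. Replicate libraries were distinct, since the counts of each pair differed by more than the chi-square value of sampling noise. The factor was 4.35 for MEF, 7.6 for LY-364747, 9.38 for CHIR-99021 and 36.4 for Carbidopa.

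The caseins and all gene lists were chosen with earlier results of these data known. Named were the caseins, a fixed set of prolactin pathway and milk genes, up to 3 called members of each list with the largest change, the genes within 300 kb of the cluster that had reads, and the 10 genes most like Csn3. Fkbp5, Fam20c, Krt18, Fabp3, Cd36, Per1, Sgk1, Mt1, Tsc22d3 and, as the runner-up to Csn3, Kcnh1 were named after their values were seen. So were list members given only by their read counts. Calls under the alternatives were not followed for these genes.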

Additional observations from a re-analysis of the deposited data

How the results depend on the processing

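All 66 alternative Csn3 differences (log2 or pooled folds over MEF) kept their direction. All moved by under 1 replicate SD, but leaving out a library could hardly exceed that. Apart from leaving out libraries, the log2 fold change of Csn3 over MEF ranged from 11.44 to 11.71 with Carbidopa, 11.56 to 11.80 with LY-364747 and 10.81 to 11.05 with CHIR-99021. Leaving out 1 library at a time gave 11.10 to 11.88, 11.21 to 11.99 and 10.47 to 11.26, and -0.78 to -0.48 for CHIR-99021 against Carbidopa. With at least 10 counts required in every library, Csn3 was not tested, because the MEF libraries had fewer. A group left with 1 library was assumed to vary like the others.

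In the fit of the compared groups alone, 1027 genes differed between CHIR-99021 and Carbidopa (2227 in the fit of all groups), 3673 between CHIR-99021 and LY-364747 (2143) and 0 between LY-364747 and Carbidopa, for which DESeq2 called 15, the fit without a filter 329 and edgeR's fit of all groups 2, with 1367 genes at an unadjusted p under 0.05 there. Leaving out 1 library gave 3142 (without MEF 2) to 7996 (without Carbidopa 2) called genes for Carbidopa against MEF, 2841 to 3095 for LY-364747 against MEF, and 3433 (without CHIR-99021 1) to 4709 for CHIR-99021 against MEF. It gave 715 (without CHIR-99021 1) to 4632 (without Carbidopa 2) for CHIR-99021 against Carbidopa, 663 to 1200 for CHIR-99021 against LY-364747, and 2 to 3816 (without Carbidopa 2) for LY-364747 against Carbidopa. The cause was not tested.

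Of 198 alternative counts over the gene lists, 192 stayed within 1.5 times the main count. The prolactin and STAT5 list had 6 to 8 called genes with CHIR-99021 when 1 library was left out, with 6 without MEF 1, without MEF 2 or without CHIR-99021 1, against 10 with all libraries. The milk list had 3 to 6 with Carbidopa, with 3 without MEF 2, against 6. With at least 10 counts in every library, 3 mammary markers were called with Carbidopa and 3 with CHIR-99021, against 6 each, because fewer genes were tested. Of the 10 genes most like Csn3, 3 (Cdhr1, Kcnh1 and Rarb) were also among the 10 nearest by 1 minus the Pearson correlation, and 9 by log2 of DESeq2 normalized counts.

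Values near 0 that were not called changed sign. With LY-364747, Stat5a was at -0.00487 with RLE factors and -0.0057 with DESeq2, and Cish was at 0.16 on total counts. On total counts Cish was at 0.052 with Carbidopa and Muc15 at 0.17 with LY-364747, and Socs2 was at -0.0030 with CHIR-99021 and RLE factors. When 1 library was left out, the values with LY-364747 were -0.18 to 0.25 for Prlr, -0.12 to 0.15 for Stat5a, -0.25 to 0.10 for Cish, -0.52 to 1.11 for Nfib, -0.55 to 0.32 for Muc15 and -3.40 to 0 for Krt5. With CHIR-99021 they were -0.010 to 0.27 for Stat5a, -0.082 to 0.25 for Cish, -0.037 to 0.11 for Socs2 and -0.92 to 0.71 for Nfib. With Carbidopa they were -0.11 to 0.78 for Cebpb and -2.18 to 0.26 for Nfib, and both were called without Carbidopa 2 (adjusted p = 0.00267 and 0.00342, edgeR).

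Leaving out 1 library ended 33 calls of the followed genes. With Carbidopa these were Socs2 (without MEF 1, MEF 2 or Carbidopa 1), Muc15 (the same libraries), Cebpd (either MEF library), and Btn1a1 and Krt14 (MEF 2). With LY-364747 they were Btn1a1 and Krt7 (any of the 4 libraries), Stat5b (MEF 2 or either LY-364747 library), Socs2 (MEF 1 or LY-364747 1) and Nr3c1 (MEF 2 or LY-364747 2). With CHIR-99021 they were Stat5b (any of the 4), Krt19 (MEF 2 or CHIR-99021 1), Krt7 (MEF 1) and Runx1 (CHIR-99021 1). Other alternatives added calls for Cebpb with LY-364747 (compared groups alone, adjusted p = 0.0426), Nfib with Carbidopa (no filter, 1.01e-07) and Cldn4 with Carbidopa (total counts, 0.0392), and ended that of Socs2 with Carbidopa (compared groups alone, 0.0723). Xdh with Carbidopa was called without Carbidopa 1 (0.0031).

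Deviations of libraries labelled with the same number (1 or 2) correlated between -0.161 and 0.128 across genes. A shared culture or batch was not tested. A fit with the replicate block gave log2 fold changes of 11.47, 11.58 and 10.84 for Csn3 over MEF, called 5473, 4424 and 5722 genes in the comparisons with MEF (5717, 4694 and 5878 without the block), and changed no call of a named gene.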
